A study of Homo sapiens with 9 samples.

Results

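The genes described here encode parts of laminin-332 and of the hemidesmosome in cultured human mammary epithelial cells. They are LAMA3, LAMB3, ITGA6, ITGB4, DST and PLEC, which were taken by symbol from the deposited gene tables and are 6 of the 62666 genes listed. All 6 passed the filter on low counts, which 17910 genes passed.

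Laminin-332 is a basement membrane protein, and LAMA3 and LAMB3 encode its alpha and beta chains. Epithelial cells bind it through the integrin formed by the products of ITGA6 and ITGB4, and the long cytoplasmic tail of the integrin beta chain binds plectin (PLEC) and the epithelial form of dystonin (DST), which tether the adhesion to keratin filaments. The resulting hemidesmosome anchors basal cells of stratified and glandular epithelia, and in the mammary gland it marks the basal or myoepithelial layer.

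Polyadenylated RNA was sequenced from 3 cell lines of 1 lineage with 3 replicate libraries each. MCF10A is an immortalised, non-tumorigenic breast epithelial line, MCF10AT1 was derived from it with an activated HRAS gene, and MCF10Ca1a forms tumours in mice and descends from MCF10AT1. MCF10A and MCF10Ca1a were kept in 5% horse serum and MCF10AT1 in 2.5%. All 3 lines received insulin (10 µg/mL), human epidermal growth factor (20 ng/mL), hydrocortisone (500 ng/mL) and cholera toxin (100 ng/mL), so no group lacked these agents. Each stage is represented by 1 line, and serum cannot be told apart from line in the comparisons with MCF10AT1. The study's stated interest was how expression changes with progression of breast cancer.

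Library totals ran from 32.9 to 69.5 M counts, with the 3 MCF10Ca1a libraries at 32.9 to 35.2 M. The labels do not say whether replicates were separate cultures, so p-values measure the spread between these libraries, which may be technical. The epithelial label was met by keratins and adhesion genes: the summed level of 6 epithelial markers was 1597 to 2225 TPM in MCF10A, 2631 to 2998 in MCF10AT1 and 2154 to 2235 in MCF10Ca1a. KRT5 alone had a mean of 1423 TPM in MCF10A, 1632 in MCF10AT1 and 420 in MCF10Ca1a. KRT19 was the low one, at 0.0566, 0.256 and 7.32 TPM in the same order. Summed fibroblast (7 genes), endothelial (4) and leukocyte (4) markers stayed at or below 33.0 TPM in every library, and the genes above 1 TPM were DCN and COL1A1, PECAM1, and CD68. The endothelial markers CDH5 and VWF were at or below 0.00806 TPM in every library. Replicate 1 of MCF10A was higher than both other MCF10A libraries in CPM for 5 of the 6 genes (all but PLEC) and in TPM for all 6, with a median log2 CPM difference of 0.26 and 0.40. The changes from MCF10A to MCF10AT1 of the laminin and integrin genes, which this library moves most, are given with and without it.

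Several sequences are given first because results below turn on the start site or the splice form they belong to. Promoter sequence is from RefSeq on GRCh38.p14, and the exon sequence is from GENCODE 29 on GRCh38. LAMA3-201, the transcript that carried 91.4% to 95.0% of LAMA3 counts, is the short alpha3A form, and the RefSeq window at its start on chromosome 18 holds 2 copies of TGANTCA, the letters that AP-1 factors bind. The motif reads the same on both strands. RefSeq windows of LAMA3, LAMB3, ITGA6 and DST were searched, and those of ITGB4 and PLEC were not. Both ITGA6 windows held 0 copies. It occurs in 7.71% of the 35116 RefSeq promoter windows (250 bases before to 50 after a start), and 0.515% hold 2 or more copies. The 2 LAMA3 sites, 125 and 69 bases before the RefSeq start but after the earlier GENCODE start at 23872840, are printed with the motif in capitals, beside the 1 copy found at an alternative LAMB3 start that carried 2.09% to 3.58% of LAMB3 counts.

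LAMA3, chr18:23872885-23872911, plus strand: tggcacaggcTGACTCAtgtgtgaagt

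LAMA3, chr18:23872941-23872967, plus strand: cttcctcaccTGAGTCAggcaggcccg

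LAMB3 alternative start, chr1:209651425-209651451, minus strand: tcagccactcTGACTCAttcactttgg

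The window of the main LAMB3 start, which carried 96.3% to 97.5% of LAMB3 counts, held no copy. The 209 bases upstream of its first exon are shown because LAMB3 had the largest rise of the 6 genes in MCF10Ca1a against MCF10AT1.

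LAMB3 main start, chr1:209652467-209652675, minus strand: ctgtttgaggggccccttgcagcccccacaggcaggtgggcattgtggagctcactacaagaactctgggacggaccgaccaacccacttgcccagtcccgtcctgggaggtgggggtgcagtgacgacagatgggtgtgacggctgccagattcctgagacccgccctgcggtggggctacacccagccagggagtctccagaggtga

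DST has separate starts for its epithelial form and for longer forms. The bases just upstream of the first exon are shown for the start of the epithelial form (143 bases) and for an upstream start of longer transcripts (204 bases). Neither window held the motif. A further DST window, at the RefSeq start 56954830, held 1 copy, 25 bases into the transcript, which is printed with the motif in capitals.

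DST motif site, chr6:56954789-56954815, minus strand: cgctgtctgcTGAGTCAtggcaagcgc

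DST epithelial start, chr6:56642997-56643139, minus strand: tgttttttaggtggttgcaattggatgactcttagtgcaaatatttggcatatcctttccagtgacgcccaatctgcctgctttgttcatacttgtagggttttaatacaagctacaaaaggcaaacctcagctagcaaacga

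DST upstream start, chr6:56851952-56852155, minus strand: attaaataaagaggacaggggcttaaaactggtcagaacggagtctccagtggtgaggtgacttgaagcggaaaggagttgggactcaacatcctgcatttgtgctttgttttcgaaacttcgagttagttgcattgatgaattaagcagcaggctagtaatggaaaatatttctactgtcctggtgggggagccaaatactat

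ITGA6 is spliced into the alpha6A and alpha6B forms, which differ in their cytoplasmic tails. The alpha6A transcript ITGA6-201 includes an exon that the alpha6B transcript ITGA6-202 skips, and the 105 coding bases of that exon are shown because the share of ITGA6-202 differed between lines.

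ITGA6 alpha6A exon, coding part, chr2:172501772-172501876, plus strand: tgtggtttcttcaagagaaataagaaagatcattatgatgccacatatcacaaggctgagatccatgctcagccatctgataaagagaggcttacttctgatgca

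The 6 genes did not move as a block between the lines. From MCF10A to MCF10AT1 the laminin chain genes LAMA3 and LAMB3 fell, while the receptor genes ITGA6 and ITGB4 and the linker genes DST and PLEC rose, from 1.23-fold for DST to 1.38-fold for PLEC and a little more for ITGB4. From MCF10AT1 to MCF10Ca1a the receptor pair and the linker pair each split in direction. LAMB3 rose 3.75-fold, PLEC 2.39-fold and ITGB4 1.90-fold, and ITGA6 fell to 0.415 and DST to 0.480 of their MCF10AT1 level. LAMA3 was 0.21 higher on the log2 scale and did not pass the test. In bulk RNA, a change in the share of cells that express a gene and a change in RNA per cell cannot be told apart.

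In MCF10AT1 against MCF10A, 4 of the 6 genes were higher and 2 lower, where 61.6% of all genes tested were called (29.8% higher and 31.8% lower). Against MCF10AT1, MCF10Ca1a had 3 of the 6 higher, 2 lower and 1 not called, with 78.4% of all genes called (38.0% higher and 40.3% lower). MCF10Ca1a against MCF10A gave the same counts of 3, 2 and 1, with 80.9% called (39.0% higher and 41.9% lower). For the comparisons with MCF10Ca1a the shares of called genes among the 6 are near these backgrounds. In MCF10AT1 against MCF10A all 6 were called, which with 6 chosen genes is given as a description. The counts are not read as a result about the set, and the sizes and pairings of the changes are described instead. Comparisons that share a line share its libraries. Calls are from the quasi-likelihood test of edgeR at an adjusted p of 0.05 (Benjamini-Hochberg, all 17910 genes), and all fold changes and adjusted p-values of genes below are from that fit.

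**Figure D1:**
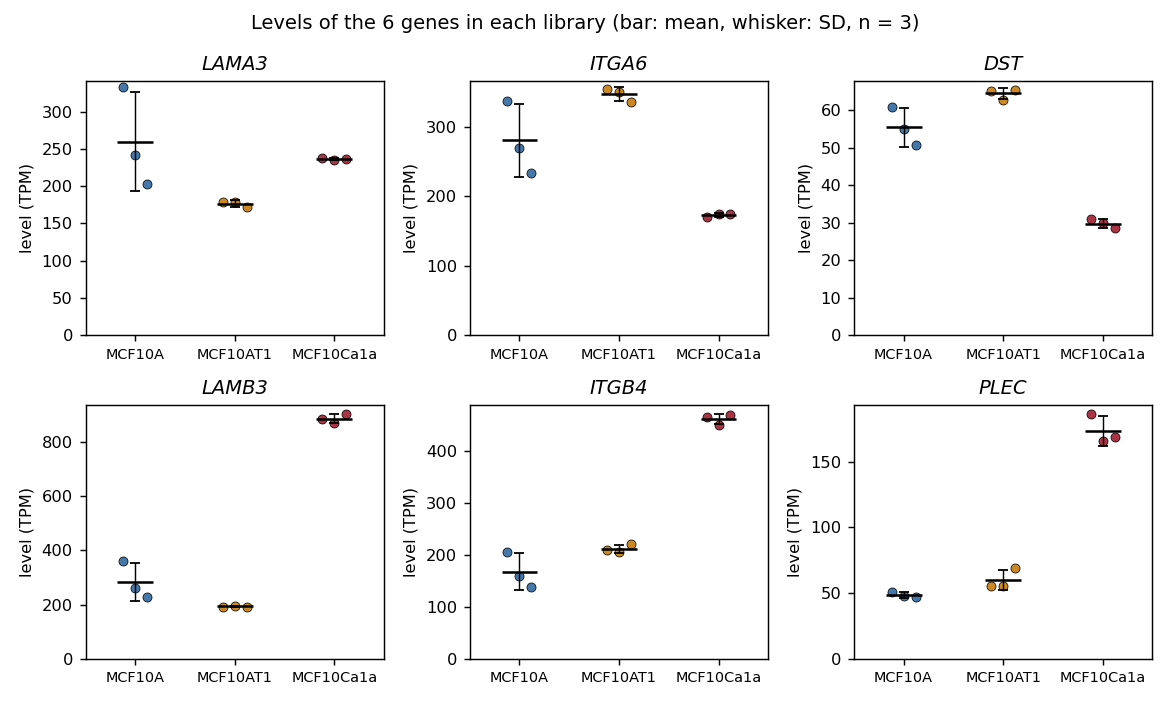
Level in TPM (transcript abundance corrected for length and library size, y axis from 0) of each of the 6 genes in the 9 libraries, by line (x axis); points are libraries, thick bars means and whiskers SD over 3 libraries. LAMB3, ITGB4 and PLEC are highest in MCF10Ca1a, ITGA6 and DST lowest there, and the MCF10A libraries are spread widest for LAMA3, LAMB3, ITGA6 and ITGB4.

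Of the ligand genes, LAMA3 encodes the alpha chain, whose end binds integrins. LAMA3 stood at 333, 242 and 203 TPM in the MCF10A libraries, at 179, 179 and 171 in MCF10AT1 and at 238, 235 and 237 in MCF10Ca1a. Every MCF10A and MCF10Ca1a library lay above every MCF10AT1 library, and the MCF10Ca1a values lay within the MCF10A range. LAMA3 fell by 0.43 on the log2 scale from MCF10A to MCF10AT1 (SE 0.105, adjusted p = 0.00276). Without MCF10A replicate 1 it was -0.26 (adjusted p = 0.000707). At the second step the change was 0.21 (SE 0.105, adjusted p = 0.0851), and without MCF10A replicate 1, which takes part in the shared estimate of the spread, that value was 0.20 with an adjusted p of 0.00202. Without MCF10A replicate 3 it was 0.20 as well, with an adjusted p of 0.0253. MCF10Ca1a against MCF10A gave -0.23 (SE 0.105, adjusted p = 0.0635), and -0.07 (adjusted p = 0.262) without replicate 1. Without MCF10A replicate 3 it was -0.36 and passed (adjusted p = 0.00104), so both the size and the call of LAMA3 in this comparison rest on which MCF10A libraries enter.

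LAMB3 encodes the beta chain of the same laminin. Its level was 362, 261 and 227 TPM in MCF10A, then 192, 193 and 193 in MCF10AT1, then 883, 869 and 901 in MCF10Ca1a. No libraries of different lines overlapped, and the MCF10Ca1a libraries were all above the highest MCF10A library. LAMB3 fell by 0.39 on the log2 scale in MCF10AT1 (SE 0.0982, adjusted p = 0.00364), by 0.23 without MCF10A replicate 1 (adjusted p = 0.000984). It rose by 1.91 from MCF10AT1 to MCF10Ca1a (SE 0.101, adjusted p = 6.11e-10) and ended 1.52 above MCF10A (adjusted p = 4.8e-09). In MCF10Ca1a against MCF10AT1, 82.9% of all genes tested had a smaller absolute change than LAMB3, and the same share was 15.5% for LAMA3 and 57.9% to 70.0% for the other 4 genes. At the first step it was 42.1% to 59.0% for the 6.

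Levels of different genes can be set side by side only per length, which TPM allows. The log2 ratio of LAMA3 to LAMB3 in TPM was -0.13 ± 0.0266 (SD, n = 3) in MCF10A, -0.13 ± 0.0354 in MCF10AT1 and -1.90 ± 0.0208 in MCF10Ca1a. LAMA3 was thus at 0.915 of the LAMB3 level in both MCF10A and MCF10AT1 and at 0.267 in MCF10Ca1a, with no overlap between MCF10Ca1a and the other libraries. The spread of this ratio within MCF10A was small although both genes varied between its libraries. These ratios were not tested and are given as values with their spread.

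**Figure D2:**
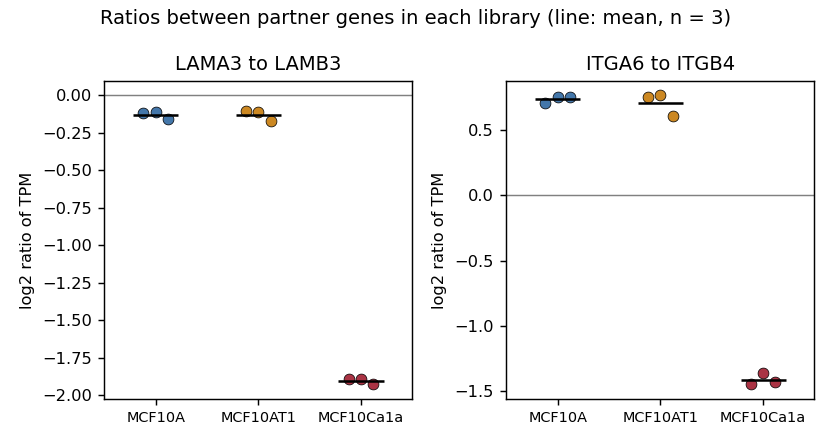
Log2 ratio of TPM (y axis) between partner genes in each of the 9 libraries, by line (x axis), with lines at the means of 3 libraries and a grey line at equal levels. LAMA3 to LAMB3 and ITGA6 to ITGB4 are alike in MCF10A and MCF10AT1 and lower in MCF10Ca1a (-1.90 and -1.41).

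Of the receptor genes, ITGA6 encodes the integrin alpha subunit, which can pair with either of the beta subunits encoded by ITGB1 and ITGB4. ITGA6 was at 338, 270 and 234 TPM in MCF10A, at 355, 349 and 336 in MCF10AT1 and at 170, 175 and 174 in MCF10Ca1a. MCF10A replicate 1 lay within the MCF10AT1 range in TPM, the other MCF10A libraries lay below it, and every MCF10Ca1a library was below all others. In CPM (normalised counts), the scale of the fit, MCF10A (811 to 1056) and MCF10AT1 (1245 to 1277) did not overlap. ITGA6 rose by 0.45 at the first step (SE 0.0797, adjusted p = 0.000249), or by 0.55 without MCF10A replicate 1 (adjusted p = 3.39e-07). It fell by 1.27 at the second (SE 0.0810, adjusted p = 4.23e-09) and ended lower than in MCF10A (log2 change -0.82, SE 0.0803, adjusted p = 3.66e-07).

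ITGB4 encodes the beta subunit, which is used by this integrin alone. Its level was 206, 159 and 138 TPM in MCF10A, then 210, 205 and 220 in MCF10AT1, then 466, 450 and 469 in MCF10Ca1a. In TPM the highest MCF10A library just exceeded the lowest MCF10AT1 library, while in CPM (608 to 816 against 955 to 1001) they did not overlap, and MCF10Ca1a was above all others on both scales. ITGB4 rose at both steps, by 0.49 (SE 0.0899, adjusted p = 0.000329) and 0.93 (SE 0.0904, adjusted p = 3.8e-07), to 1.42 above MCF10A (SE 0.0914, adjusted p = 3.79e-09). Without MCF10A replicate 1 the first rise was 0.62 (adjusted p = 1.11e-07).

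The alpha and beta receptor genes therefore moved together at the first step and in opposite directions at the second. The log2 TPM ratio of ITGA6 to ITGB4 was 0.74 ± 0.0262 in MCF10A, 0.71 ± 0.0896 in MCF10AT1 and -1.41 ± 0.0466 in MCF10Ca1a (SD, n = 3). ITGA6 thus stood at 1.67 and 1.64 times the ITGB4 level in MCF10A and MCF10AT1, and at 0.375 of it in MCF10Ca1a. Genes on the opposite strand overlap these loci, PDK1-AS1 at ITGA6 and GALK1 at ITGB4, and whether the counting used strand is not given in the sources used here. Their mean counts over the 9 libraries were 28.2 and 256 reads.

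Of the linker genes, DST encodes the dystonin family, whose epithelial form BPAG1e binds keratin filaments at the inner hemidesmosome plate. DST was at 61.0, 55.0 and 50.6 TPM in MCF10A, at 65.2, 62.8 and 65.4 in MCF10AT1 and at 30.9, 29.8 and 28.6 in MCF10Ca1a. The lines did not overlap, and MCF10Ca1a was lowest. DST rose by 0.30 at the first step (SE 0.0580, adjusted p = 0.000463), fell by 1.06 at the second (SE 0.0589, adjusted p = 9.88e-10) and was lower in MCF10Ca1a than in MCF10A (log2 change -0.76, SE 0.0587, adjusted p = 2.86e-08).

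PLEC encodes plectin, which binds the tail of the integrin beta subunit and links it to intermediate filaments. PLEC was at 50.9, 47.5 and 47.3 TPM in MCF10A, at 55.5, 55.7 and 68.9 in MCF10AT1 and at 186, 165 and 168 in MCF10Ca1a. The lines did not overlap, replicate 3 of MCF10AT1 stood above its fellows, and the MCF10Ca1a libraries were far above the rest. PLEC rose at both steps, by 0.47 (SE 0.0935, adjusted p = 0.000659) and 1.26 (SE 0.0946, adjusted p = 2.46e-08), to 1.72 above MCF10A (SE 0.0959, adjusted p = 7.66e-10). In fold terms that last difference, 3.30, was the largest of the 6 genes in that comparison.

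The order of the 6 genes by TPM changed between the lines. In MCF10A, LAMB3 (283 ± 69.8), ITGA6 (280 ± 52.9) and LAMA3 (260 ± 66.5) overlapped in their ranges over libraries, although LAMA3 was below LAMB3 within each library, and ITGB4 (168 ± 34.7), DST (55.5 ± 5.20) and PLEC (48.6 ± 2.02) followed (SD, n = 3). In MCF10AT1, ITGA6 led at 347 ± 9.87, followed by ITGB4 (212 ± 7.76), LAMB3 (193 ± 0.273) and LAMA3 (176 ± 4.33), and DST (64.5 ± 1.44) and PLEC (60.0 ± 7.66) overlapped. MCF10Ca1a had LAMB3 first at 884 ± 15.9, then ITGB4 (462 ± 10.2) and LAMA3 (236), PLEC (173 ± 11.3) and ITGA6 (173 ± 2.46) within each other's spread, and DST last at 29.8 ± 1.14. As a percentile of all genes tested by TPM, LAMB3 moved from 97.3 in MCF10A to 96.0 and 99.1, and DST from 85.4 to 88.0 and 74.3.

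**Figure D3:**
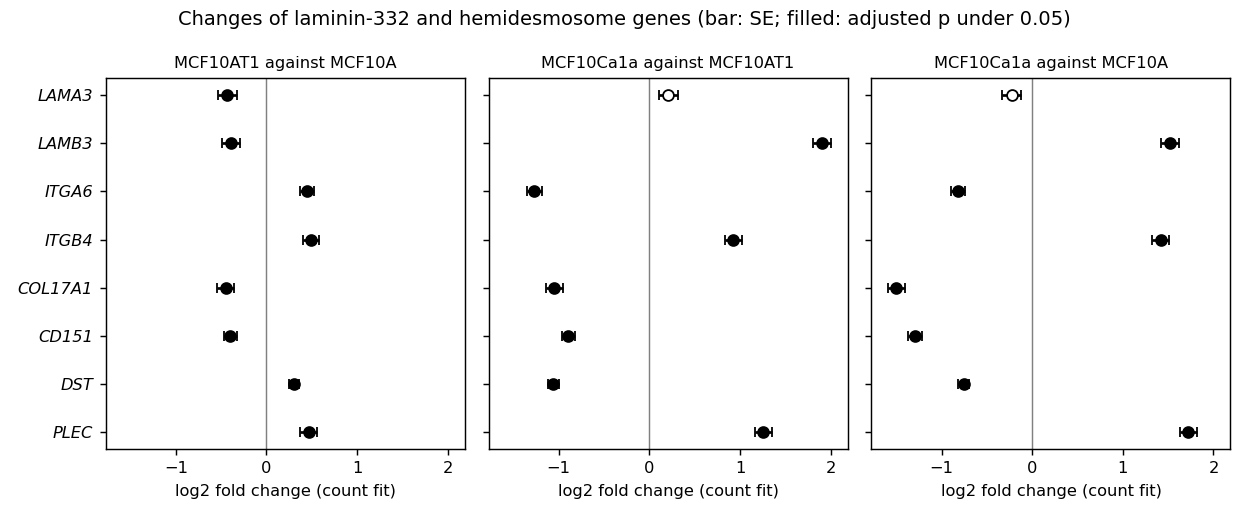
Fitted log2 fold change (x axis) of the 6 genes and of COL17A1 and CD151 in the 3 comparisons, with bars of 1 SE; filled points have an adjusted p under 0.05. LAMB3, ITGB4 and PLEC lie to the right at the second step, ITGA6, DST, COL17A1 and CD151 to the left, and LAMA3 is open in both comparisons with MCF10Ca1a.

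Likeness of pattern was measured as the root mean square difference of log2 CPM, each gene centred on its mean, over the 9 libraries, which are shared by all genes. Among the 15 pairs of the 6 genes, ITGA6 and DST were closest (0.121), followed by ITGB4 and PLEC (0.216), and LAMB3 and ITGA6 were farthest apart (1.34). The laminin chain genes LAMA3 and LAMB3 were at 0.811, and the integrin subunit genes ITGA6 and ITGB4 at 1.05. Among 11997 genes with a mean of 100 counts or more, the closest to each of the 6 were RMDN3 for LAMA3 (0.0431), PTPRF for LAMB3 (0.0510), TRIM14 for ITGA6 (0.0734), SHB for ITGB4 (0.0547), NACC2 for DST (0.0454) and MNT for PLEC (0.102). Next in order were TFIP11 and SEMA4B for LAMA3, DHX38 and IGSF8 for LAMB3, DLAT and CNKSR3 for ITGA6, XDH and NRP2 for ITGB4, PLEKHA4 and PHF2 for DST, and H2AC25 and MTFR1L for PLEC. Pearson's r over the 9 libraries was 0.966 to 0.999 for these 18 genes, which were chosen for their likeness.

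Transcript tables showed which forms lay behind the gene totals. Of 101 transcripts listed for the 6 genes, 17 passed the filter on share, and the share test (limma on log2 of each transcript's counts over the remaining counts of the gene) called 2, 8 and 11 of them in MCF10AT1 against MCF10A, MCF10Ca1a against MCF10AT1 and MCF10Ca1a against MCF10A. The backgrounds over all transcripts tested were 5.84%, 26.5% and 33.0%. Reads in shared exons are split between transcripts by estimation, and the uncertainty of that step was not used.

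The make-up of DST differed in MCF10Ca1a. DST-205, the transcript of the epithelial form (2649 codons), was at 39.4, 34.2 and 30.7 TPM in MCF10A, then 41.4, 38.8 and 40.8 in MCF10AT1, then 14.1, 13.7 and 13.1 in MCF10Ca1a. MCF10Ca1a lay below every other library. DST-202, a 95-exon transcript of 5537 codons from the upstream start, was at 0.0888, 0.140 and 0 TPM in MCF10A, then 0.0361, 0.2505 and 0 in MCF10AT1, then 3.03, 2.59 and 2.24 in MCF10Ca1a. It was listed at 0 in 1 library of each of the first 2 lines and present in every MCF10Ca1a library. DST-205 took 70.2% ± 1.95, 72.5% ± 1.52 and 43.1% ± 0.590 of DST counts in the 3 lines (SD, n = 3), and DST-202 took 0.326% ± 0.312, 0.387% ± 0.553 and 18.0% ± 1.83.

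The DST-205 share fell in MCF10Ca1a against MCF10AT1 (log2 share change -1.80, SE 0.125, limma adjusted p = 0.000118) and against MCF10A (-1.64, SE 0.125, adjusted p = 0.000127), and was called in 9 of 9 fits that left out 1 library. Computed on TPM in place of counts the changes were -0.97 in both comparisons, since counts weigh long transcripts more (limma adjusted p = 0.0032 and 0.0023). DST-202 rose by 7.76 against MCF10A (SE 2.46, adjusted p = 0.0488) and differed by 8.05 from MCF10AT1 without passing (SE 2.46, adjusted p = 0.0509). These sizes depend on the value added to the libraries where it was listed at 0. DST-202 was called in 2 of the 9 fits that left out 1 library in either comparison. On TPM it was called in both (6.65 against MCF10A and 6.97 against MCF10AT1, limma adjusted p = 0.0128 and 0.0138), so its call depends on the setting and its direction does not.

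Counts were then summed by start. The start of the epithelial form carried 85.7% ± 1.68, 88.9% ± 0.886 and 58.0% ± 3.24 of DST counts in MCF10A, MCF10AT1 and MCF10Ca1a, and the upstream start whose sequence is printed above carried 1.62% ± 0.197, 2.08% ± 0.713 and 18.6% ± 1.59 (SD, n = 3). Of the 8 starts that could be tested, all in DST and PLEC, 0, 5 and 7 were called in the 3 comparisons, with backgrounds of 6.08%, 28.2% and 33.9%. Between MCF10AT1 and MCF10Ca1a a further DST start, led by DST-207, went from 2.86% ± 1.01 to 10.1% ± 3.96 of DST counts. Its log2 share change was 1.93 (SE 0.397, limma adjusted p = 0.0112). In the same comparison the epithelial start fell (log2 share change -2.54, SE 0.167, limma adjusted p = 8.23e-05) and the upstream start printed above rose (3.48, SE 0.254, adjusted p = 0.00013). In TPM these starts took 79.2% ± 0.636 and 5.4% ± 0.650 of DST in MCF10AT1 and 62.5% ± 3.65 and 11.1% ± 0.234 in MCF10Ca1a, and the changes were -1.19 and 1.14 (limma adjusted p = 0.00476 and 0.00639). The summed level of the upstream start was 3.47 ± 0.342 TPM in MCF10AT1 and 3.31 ± 0.172 in MCF10Ca1a, while that of the epithelial start was 51.1 ± 0.983 and 18.6 ± 0.416 TPM. In TPM, then, the level at the upstream start, over its 5 transcripts, did not differ beyond its spread between MCF10AT1 and MCF10Ca1a. In MCF10Ca1a the level at the epithelial start was lower, and DST-202 made up more of the upstream sum. The upstream start was at 2.50 ± 0.342 TPM in MCF10A, where every library lay below all libraries of the other lines.

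**Figure D4:**
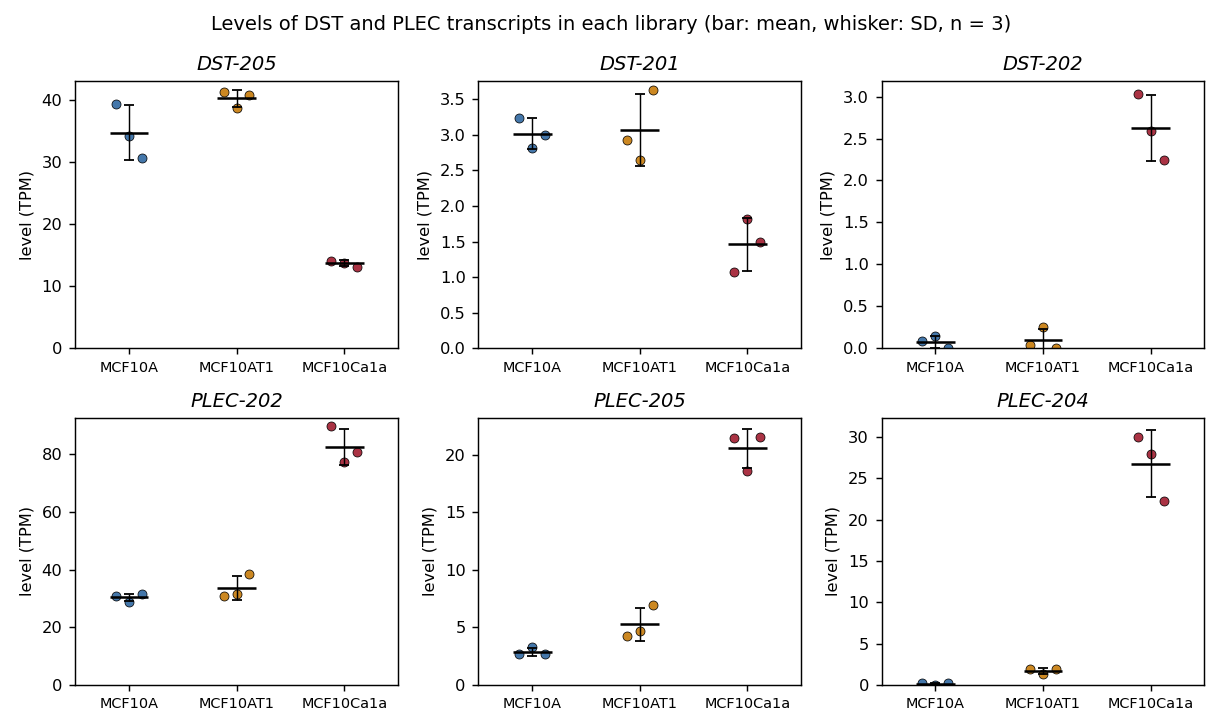
Level in TPM (y axis from 0, own scale per panel) of 3 DST and 3 PLEC transcripts in the 9 libraries, by line (x axis); points are libraries, thick bars means and whiskers SD over 3 libraries. DST-205 and DST-201 are lower in MCF10Ca1a while DST-202 is near 0 elsewhere, and PLEC-204 goes from a mean of 0.137 to 1.70 and 26.8 TPM.

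The PLEC transcripts named here each begin at a start of their own on chromosome 8. PLEC-202, the main one, was at 30.8, 28.8 and 31.3 TPM in MCF10A, then 30.9, 31.6 and 38.5 in MCF10AT1, then 89.6, 77.3 and 80.6 in MCF10Ca1a. PLEC-204 was at 0.238, 0 and 0.174 TPM in MCF10A, then 1.88, 1.31 and 1.90 in MCF10AT1, then 30.0, 27.98 and 22.3 in MCF10Ca1a. Its lines did not overlap, and 1 MCF10A library was listed at 0. PLEC-204 took 0.287% ± 0.254, 2.96% ± 0.547 and 15.9% ± 1.96 of PLEC counts, and its share rose in MCF10Ca1a against MCF10A (7.91, SE 1.87, limma adjusted p = 0.0168, 9 of 9 fits that left out 1 library). Its size depends on the value added to the library at 0, and on TPM it was 6.83 (limma adjusted p = 0.00509). At the single steps it was not called (limma adjusted p = 0.166 and 0.342). PLEC-202 went from 64.9% ± 3.17 to 58.8% ± 0.584 and 49.3% ± 0.841, a fall in MCF10Ca1a against MCF10A of 0.93 on the log2 share scale (limma adjusted p = 0.00216), although its level rose with the gene. PLEC-205 went from 6.14% ± 0.915 to 9.003% ± 1.25 and 12.2% ± 0.872, a rise of 1.09 between MCF10A and MCF10Ca1a (limma adjusted p = 0.00335). PLEC-211 held 15.6%, 18.6% and 12.5%, with a fall at the second step alone (-0.67, limma adjusted p = 0.0291, called in 5 of 9 fits that left out 1 library).

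For ITGA6 the alpha6B transcript ITGA6-202 was at 42.7, 34.6 and 32.3 TPM in MCF10A, then 6.86, 9.94 and 7.66 in MCF10AT1, then 6.11, 3.36 and 1.67 in MCF10Ca1a. Every MCF10A library was above all others. Its share of ITGA6 counts was 13.6% ± 0.793, 2.46% ± 0.491 and 2.25% ± 1.37, lower in MCF10AT1 than in MCF10A by 2.66 on the log2 scale (log2 share change -2.66, SE 0.453, limma adjusted p = 0.0202, called in 3 of 9 fits that left out 1 library) and in MCF10Ca1a (-2.97, SE 0.453, adjusted p = 0.0027, 9 of 9). The alpha6A transcript ITGA6-201, which holds the exon printed above, took 11.7% ± 1.13, 13.3% ± 0.152 and 9.39% ± 1.04. Its share was called lower at the second step alone (log2 share change -0.57, SE 0.144, limma adjusted p = 0.0274, called in 5 of 9 fits that left out 1 library). Most ITGA6 counts, 74.0%, 83.5% and 87.5%, went to ENST00000684293.1, a transcript that GENCODE 29 does not list, so its splice form was not read here and the share of alpha6A and alpha6B over all ITGA6 transcripts is not given. Its share was called higher at both steps (0.83 and 0.47, limma adjusted p = 0.0102 and 0.0254) and in MCF10Ca1a against MCF10A (1.29, limma adjusted p = 0.00026). These calls held in 9, 4 and 9 of the 9 fits that left out 1 library. On TPM only the last was called (0.98, limma adjusted p = 0.00421).

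In each of the 6 genes the leading transcript by counts was the same in every line. LAMA3-201 took 94.0%, 91.4% and 95.0% of LAMA3 counts and LAMB3-201 took 96.3%, 97.2% and 95.6% of LAMB3 counts in the 3 lines. By counts their minor starts were below the filter on share, and by TPM they could be tested. The alternative LAMB3 start with the motif printed above took 6.16% ± 0.241, 4.84% ± 0.280 and 8.58% ± 0.241 of LAMB3 TPM, a rise of 0.88 on the log2 share scale at the second step (limma adjusted p = 0.00648). The LAMA3-201 start took 91.9% ± 2.04, 88.1% ± 1.49 and 94.0% ± 1.35 of LAMA3 TPM and rose at that step by 1.11 (limma adjusted p = 0.0364). ITGB4-203 and ITGB4-206, which code for proteins of the same length (1752 codons), took 54.6%, 52.6% and 56.0% and 34.6%, 36.7% and 32.2% of ITGB4 counts, and neither was called in any comparison (limma adjusted p from 0.143 to 0.682). A further tested transcript with a smaller share, ITGB4-201 (1822 codons), was called higher in MCF10Ca1a. Its log2 share change was 0.73 against MCF10AT1 and 0.87 against MCF10A (limma adjusted p = 0.0477 and 0.0216).

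Among the other genes of the hemidesmosome, COL17A1 and CD151 fell at both steps. COL17A1, the transmembrane collagen of the hemidesmosome, was at 203, 154 and 134 TPM in MCF10A, then 115, 117 and 113 in MCF10AT1, then 78.6, 75.6 and 73.0 in MCF10Ca1a. CD151, the tetraspanin bound to the laminin-binding integrins, was at 295, 247 and 205 TPM, then 175, 174 and 151, then 112, 109 and 105. Both were ordered MCF10A, MCF10AT1 and MCF10Ca1a from high to low with no overlap between lines. COL17A1 fell by 0.45 (adjusted p = 0.000874) and 1.05 (adjusted p = 1.59e-07), and CD151 by 0.40 (adjusted p = 0.000281) and 0.89 (adjusted p = 6.53e-08).

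KRT14 and KRT5 encode basal keratins, the filaments that hemidesmosomes anchor. KRT14 went from 205 ± 33.1 TPM in MCF10A to 38.8 ± 1.59 in MCF10AT1 and 4.78 ± 0.137 in MCF10Ca1a (log2 changes -2.26 and -3.39, adjusted p = 8.22e-12 and 4.86e-13). KRT5 was higher in MCF10AT1 (0.36, adjusted p = 0.00131) and lower in MCF10Ca1a against MCF10AT1 (-2.25, adjusted p = 1.39e-11). Keratin genes have near-identical copies between which reads can be split, so these values are less certain. ERBIN, which binds ITGB4, was 0.74 higher at the second step (adjusted p = 7.61e-08).

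**Figure D5:**
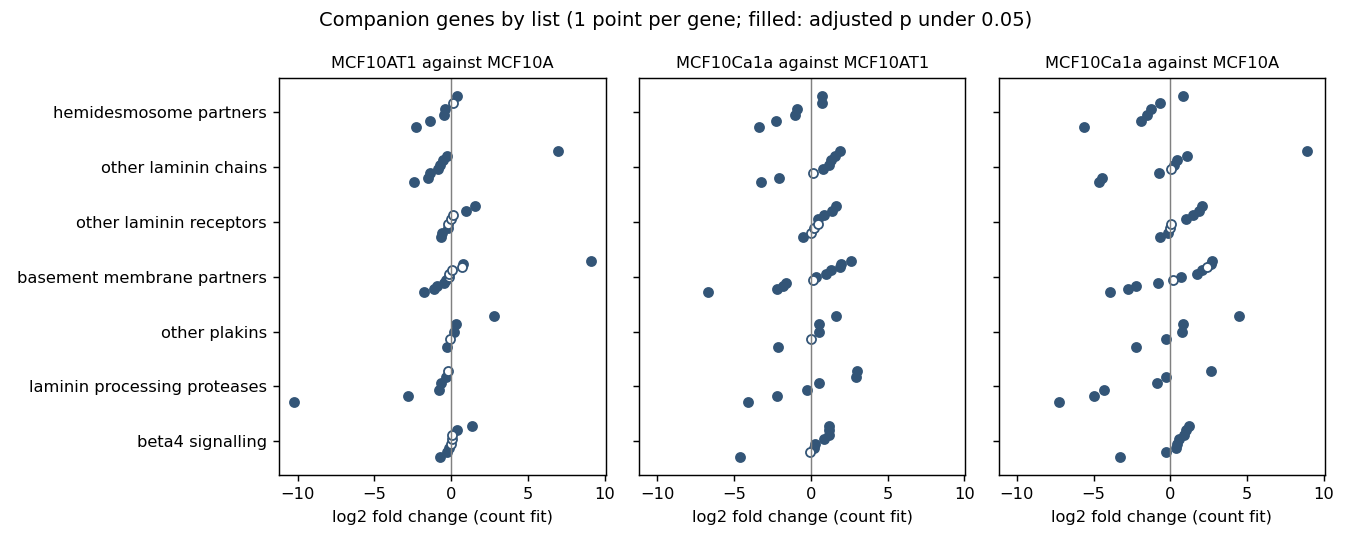
Fitted log2 fold change (x axis) of the 52 companion genes tested, 1 point per gene, by list (y axis) in the 3 comparisons; filled points have an adjusted p under 0.05. Most points lie left of 0 in MCF10AT1 against MCF10A (11 higher, 28 lower) and more lie right of 0 in MCF10Ca1a against MCF10AT1 (29 higher, 16 lower).

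In all, 58 companion genes were listed in 7 groups, and 52 passed the filter. In the order of the 3 comparisons, 11, 29 and 24 were higher and 28, 16 and 23 lower. Over all genes tested, 29.8%, 38.0% and 39.0% were higher and 31.8%, 40.3% and 41.9% lower, the shares against which the counts of each list below are to be read. The companions had median log2 changes of -0.24, 0.44 and 0.11 beside -0.00, -0.04 and -0.05 over all genes tested. The 6 genes themselves had medians of 0.38, 0.57 and 0.60.

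Among the other laminin chains, 7 of 8 tested were lower and 1 higher in MCF10AT1 against MCF10A, and 5 were higher and 2 lower in MCF10Ca1a against MCF10AT1. LAMA4, an alpha chain of mesenchymal and endothelial basement membranes, was the 1 that rose at the first step. It had 8, 7 and 11 counts in the MCF10A libraries, 1141, 1075 and 999 in those of MCF10AT1, then 2293, 2052 and 2169 in those of MCF10Ca1a, with log2 changes of 6.95 (adjusted p = 9.59e-15) and 1.91 (adjusted p = 9.23e-13). LAMA1 fell by 2.42 at the first step (adjusted p = 1.71e-09) and had 9 to 13 counts in MCF10Ca1a. In the same libraries the endothelial marker PECAM1 was at 18.7 TPM in MCF10Ca1a, and the fibroblast marker DCN at 27.9 TPM in MCF10AT1, and their part in the LAMA4 level was not tested.

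Of 8 other laminin receptors, 2 were higher and 3 lower at the first step and 4 higher and 1 lower at the second. SDC4, a heparan sulfate syndecan, rose at both (0.99, adjusted p = 2.92e-08, to 1.88 above MCF10A, adjusted p = 1.16e-11). BCAM, a receptor for the laminin alpha5 chain, fell by 0.66 and then rose by 1.65 (adjusted p = 0.000137 and 6.24e-09), and SDC1 was 0.69 log2 units lower in MCF10Ca1a than in MCF10A (log2 change -0.69, adjusted p = 6.51e-06).

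Of 11 basement membrane partners tested, 2 were higher and 5 lower at the first step and 6 higher and 4 lower at the second. HSPG2, which encodes perlecan, was 2.65 higher in MCF10Ca1a than in MCF10AT1 (adjusted p = 1.32e-11). COL7A1, the anchoring fibril collagen that binds laminin-332, fell by 1.80 at that step (adjusted p = 2.53e-10). COL4A6 fell by 1.11 at the first step (adjusted p = 1.85e-07) and was 2.73 log2 units lower in MCF10Ca1a than in MCF10A (log2 change -2.73, adjusted p = 1.38e-11). FRAS1 was 0.75 higher in MCF10AT1 (adjusted p = 1.52e-05).

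The other plakins, relatives of DST and PLEC, showed 3 higher and 1 lower of 5 at each step. PPL, periplakin of the cornified envelope and desmosome, rose by 2.80 and 1.63 (adjusted p = 1.99e-11 and 6.59e-10) to 4.44 above MCF10A (adjusted p = 9.15e-14). EPPK1, the neighbour of PLEC on chromosome 8, fell by 2.11 at the second step (adjusted p = 2.78e-09) while PLEC rose. DSP, desmoplakin, fell by 0.24 at the first step (adjusted p = 0.00922).

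Of 6 laminin-processing proteases tested, 5 were lower and 0 higher at the first step (1 not called), and 3 were higher and 3 lower at the second. MMP9 had 1090, 915 and 936 counts in the MCF10A libraries, 1, 1 and 0 counts in those of MCF10AT1, and 3, 3 and 4 in those of MCF10Ca1a, so its call at the second step rests on counts at or near the floor of 3 and no fold is given. PLAT, tissue plasminogen activator, was 3.03 higher in MCF10Ca1a than in MCF10AT1 (adjusted p = 1.78e-12), and MMP2 fell by 4.09 there (adjusted p = 6.5e-11). Of 8 genes known to signal with the ITGB4 product, 2 were higher and 3 lower at the first step, and 6 higher and 1 lower at the second. ERBB2, a receptor kinase that associates with this integrin, was 1.21 higher at the second step (adjusted p = 2.71e-08), MST1R fell by 0.74 at the first (adjusted p = 7.9e-08), and FYN rose by 1.34 (adjusted p = 1.73e-07) and then fell by 4.63 (adjusted p = 1.62e-11) to 8 to 9 counts per library.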

How the data were processed

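Gene and transcript tables were used as deposited. Estimated counts per gene and transcript, and TPM values per gene and transcript, were made by the authors with Salmon on hg38, the tool and build that the submitters' processing notes name with no role; program settings and annotation are not given in the sources used here. Length-scaled and scaled gene counts, deposited as estimated counts, served as alternatives. Libraries were poly-A selected with a stranded kit, per the labels' protocols.

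Estimated counts were rounded. edgeR 4.0.16 (R 4.3.3) was fitted on all 9 libraries with TMM normalisation after filterByExpr by line (minimum count 10, minimum total 15), with the quasi-likelihood test adjusted over 17910 genes at 0.05. CPM values use TMM-scaled totals. TPM depends on each library's composition: on log2(TPM + 1) the median over all genes was 0.13 in MCF10Ca1a against MCF10AT1, beside -0.04 in the count fit, and relative to it LAMA3 changed by 0.29, LAMB3 by 2.06, ITGA6 by -1.13, ITGB4 by 0.99, DST by -1.22 and PLEC by 1.39.

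Transcript and start shares were tested with limma 3.58.1 on log2((count + 1)/(rest of gene + 1)), for items with a mean share of 5% or more in any line in genes of 50 counts or more; annotated starts within 500 bases were joined. Positions are GENCODE 29 (GRCh38), which matched 92.9% of genes and 80.2% of transcripts by identifier. Gene and share tests were tested on simulated data.

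The 6 genes, the companion lists, the tests and the rules were chosen with earlier results of these data known. Named are the 6 genes, COL17A1 and CD151; from each companion list and comparison the largest called rise and fall among genes with a mean of 100 counts or more in the higher line; the 3 genes most alike in pattern to each of the 6; transcripts with 10% or more of a gene's counts in any line; and flanking genes. An item of the rule is not reported here. Values of a named gene in other comparisons are added where they complete its pattern; DST starts were chosen after their values were seen. Alternatives were DESeq2 1.42.0 and its size factors, no filter, the other count tables, log2 TPM with pseudocounts of 1 and 0.1, only the lines compared, the replicate number as a block and each library left out. No library pair was identical. Counting floors of 3 counts cover counting error only.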

Additional observations from a re-analysis of the deposited data

How the results depend on the processing

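All 18 log2 changes of the 6 genes kept their direction over 19 alternatives each. ITGA6 (0.32, limma adjusted p = 0.0776) and ITGB4 (0.35, limma adjusted p = 0.0762) lost their call in MCF10AT1 against MCF10A on unfiltered log2(TPM + 1). LAMA3 was called in 7 alternatives in MCF10Ca1a against MCF10AT1 (0.12 to 0.42 over all 19) and in 4 in MCF10Ca1a against MCF10A (-0.36 to -0.07). Counts of called genes among the 6, the companions and all genes stayed within 1.5 times of those reported.

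Counts of called transcripts and starts moved more. For starts in MCF10AT1 against MCF10A, 0 became 1 with a share filter of 1%, 1 with starts joined within 100 bases, and 0 to 1 with 1 library left out. For starts in MCF10Ca1a against MCF10AT1, 5 became 8 with the 1% filter and 3 to 6 with 1 library left out (3 without MCF10AT1 replicate 1 or MCF10Ca1a replicate 2). Starts in MCF10Ca1a against MCF10A went from 7 to 12 and transcripts from 11 to 18 with the 1% filter, which tests more of them. Transcripts called in MCF10AT1 against MCF10A went from 2 to 1 on TPM and to 1 to 2 with 1 library left out (1 without MCF10A replicate 1 or 3 or any MCF10AT1 library), and in MCF10Ca1a against MCF10AT1 from 8 to between 3 and 9 (3 without MCF10AT1 replicate 1, and 4 without MCF10AT1 replicate 2 or 3 or MCF10Ca1a replicate 1 or 2). The cause of the changes with left-out libraries was not tested.

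The replicate numbers did not pair the samples: correlations of deviations were -0.06 to 0.05 for the 9 same-numbered pairs and -0.07 to 0.10 for the 18 others. With the replicate number as a block, no call of the 6 genes changed, transcripts called went from 2 to 0 in MCF10AT1 against MCF10A and from 8 to 4 in MCF10Ca1a against MCF10AT1, and starts called in the latter went from 5 to 3.

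On length-scaled counts, which multiply gene length back in, the log2 ratio of LAMA3 to LAMB3 was 0.30 in MCF10A and 0.30 in MCF10AT1, above 0 where the TPM ratio was below it, and -1.47 in MCF10Ca1a. That of ITGA6 to ITGB4 was 0.39, 0.36 and -1.77. MCF10Ca1a had the fewest counts, which limits its low transcripts most.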

Other observations

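Genes beside the 6 were counted from the same fit, over gene bodies within 500 kb. Of all genes tested, 29.8% were higher and 31.8% lower in MCF10AT1 against MCF10A, 38.0% and 40.3% in MCF10Ca1a against MCF10AT1, and 39.0% and 41.9% in MCF10Ca1a against MCF10A. Near PLEC on chromosome 8, 35 of 45 tested genes were lower and 2 higher in MCF10AT1 against MCF10A (median log2 change -0.69), while PLEC rose by 0.47. In MCF10Ca1a against MCF10A, 34 of these 45 were lower and 3 higher (median -1.0), while PLEC was 1.72 higher. Over all genes tested the medians were -0.00 and -0.05. PARP10, which lies 0.419 kb from PLEC, had log2 changes of -1.72 (edgeR adjusted p = 1.32e-10) at the first step and 0.99 (adjusted p = 2.38e-08) at the second.

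Near ITGB4 on chromosome 17, 26 of 37 tested genes were higher and 4 lower in MCF10Ca1a against MCF10AT1 (median 0.83), a step at which ITGB4 rose by 0.93. In MCF10AT1 against MCF10A, 9 of the 37 were higher and 9 lower (median -0.08), while ITGB4 rose by 0.49. Of its flanking genes, SAP30BP was 1.04 higher in MCF10Ca1a against MCF10AT1 (edgeR adjusted p = 1.1e-10), and H3-3B had a log2 change of -0.02 in that comparison (adjusted p = 0.688).

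Of the 11 genes near LAMA3, 6 were higher and 0 lower in MCF10AT1 against MCF10A, where LAMA3 fell by 0.43. ANKRD29, on its left, rose by 0.32 there (edgeR adjusted p = 0.0118), and TTC39C, on its right, had -0.10 (adjusted p = 0.0963). Of the 8 genes near LAMB3, 6 were lower and 0 higher at the first step and 6 higher and 0 lower at the second. In MCF10Ca1a against MCF10A, 3 of these 8 were higher and 4 lower (median -0.21), while LAMB3 was 1.52 higher. HSD11B1, the flanking gene on its right, was called higher at the second step (edgeR adjusted p = 0.00159), and CAMK1G, on its left, had a mean of 4.67 counts.

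Of the 8 genes near ITGA6, 7 were lower and 0 higher in MCF10Ca1a against MCF10A. In MCF10AT1 against MCF10A, 4 were lower and 1 higher (median -0.27), while ITGA6 rose by 0.45. PDK1, 49.1 kb from ITGA6, fell by 1.06 at the second step (edgeR adjusted p = 5.85e-09), and DLX2 on the other side fell by 1.41 at the first (adjusted p = 1.46e-05) and rose by 0.80 at the second (adjusted p = 0.00264). Of the 6 tested neighbours of DST, 2 were higher and 1 lower at the first step, and 2 higher and 4 lower at the second. In MCF10Ca1a against MCF10A, 1 was higher and 4 lower. BEND6, 0.498 kb from DST on the opposite strand, rose by 0.43 at the first step (adjusted p = 0.0258) and fell by 0.79 at the second (adjusted p = 0.000677), as DST did by 0.30 and 1.06. BEND6 had a mean of 91.8 counts and was not called in MCF10Ca1a against MCF10A (-0.36, edgeR adjusted p = 0.0659). Within 250 kb the PLEC counts were 15 lower and 1 higher of 20 in MCF10AT1 against MCF10A.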
